A study of Mus musculus with 45 samples.

Results

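Bone is removed by osteoclasts, cells of the macrophage lineage that fuse and then dissolve mineral and matrix. Their formation is driven by a pair of signals from other cells: CSF1 (also called M-CSF), which keeps the precursors alive, and RANKL (gene Tnfsf11), which acts through its receptor RANK (Tnfrsf11a) and is held back by the soluble decoy receptor osteoprotegerin, OPG (Tnfrsf11b). In the developing limb, osteoclasts and their precursors reach the cartilage model as it ossifies. The 10 genes described here are these 4 and the 6 osteoclast genes Acp5, Ctsk, Ocstamp, Dcstamp, Oscar and Gpnmb. They were taken by symbol from the 34994 genes of the joined count tables, and all 10 were found.

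The libraries came from forelimb buds of CD1 mouse embryos at gestation day 13, pooled and kept in bottle culture, with male and female limbs together. Medium held the vehicle dimethyl sulfoxide (DMSO), 10 µM bisphenol S (BPS) or 50 µM BPS for 3, 24 or 48 h, which gave 9 groups of 5 libraries. BPS is an industrial substitute for bisphenol A. Poly-A RNA was sequenced to between 15.2 and 23.1 M gene-assigned reads per library, with a median of 18.2 M. Strain labels of the 5 libraries of 50 µM BPS at 48 h read CD2 to CD6, whereas the design text names CD1 only. Limbs in culture have no circulation and hold many cell types besides osteoclasts and their precursors. Levels are given as CPM, read counts scaled to a common library size, and their error is the SD over the 5 libraries of a group. A count of 3 reads corresponds to 0.13 to 0.197 CPM. Whether the 5 libraries of a group stem from separate cultures is not in the labels, so the error behind each p-value is that among libraries and could be technical.

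The 10 genes covered a wide range of levels. Compared per kilobase of gene length in DMSO at 48 h, Ctsk was highest with 36.9 ± 3.18 CPM per kb, followed by Gpnmb with 9.82 ± 1.24, Csf1 with 6.09 ± 0.416, Acp5 with 3.66 ± 0.466 and Tnfrsf11b with 2.15 ± 0.263 CPM per kb (SD, n = 5). Tnfrsf11a with 0.497 ± 0.171 CPM per kb and Tnfsf11 with 0.484 ± 0.18 CPM per kb did not differ beyond their spread, nor did Oscar with 0.289 ± 0.214 CPM per kb from either. Ocstamp and Dcstamp were lowest, with 0.0765 ± 0.0585 and 0.0497 ± 0.0412 CPM per kb, and overlapped each other. At 3 h in DMSO the order differed, since Gpnmb stood in the seventh place with 0.156 ± 0.0504 CPM per kb.

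Osteoclast markers were unevenly present. Mmp9, a matrix protease, averaged 35.8 ± 4.85 CPM in DMSO at 48 h, and Itgb3, the beta chain of the osteoclast vitronectin receptor, averaged 5.71 ± 1.03 CPM (SD, n = 5). Other markers were near 0: Calcr, the calcitonin receptor, averaged 0.526 ± 0.255 CPM, Ocstamp 0.28 ± 0.214 CPM and Dcstamp 0.132 ± 0.11 CPM in the same libraries. Atp6v0d2, a proton pump subunit used in fusion and resorption, averaged 1.57 ± 0.42 CPM at 48 h and 0.105 ± 0.0803 CPM at 3 h in DMSO (log2 fold change 3.76 ± 0.434, edgeR adjusted p = 1.89e-06). Its 3 h mean lay below the level of 3 reads. It passed the filter on low counts through the 48 h libraries, so this test depended on its being high there. The 10 osteoclast markers together averaged 197, 287 and 293 CPM in sum at 3, 24 and 48 h in DMSO. Most of the sum at 48 h came from the transcription factor Nfatc1. Ctsk averaged 55.8 CPM, Acp5 averaged 7.43 CPM, and the others were as given above or lower. The sum therefore does not follow the course of Ctsk. Ctsk, Gpnmb and Csf1 are also made by cells of other kinds, such as fibroblasts, macrophages and cartilage cells. The share of their reads that came from osteoclasts was not tested.

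The sequence before the transcription start is shown for Ctsk and Gpnmb, which had the highest level and the largest change with time, and for Acp5, the member whose window held a site word of the MITF and TFE factors. RefSeq (GRCm38.p6) held a start for 7 of the 10 genes, with no entry for Tnfrsf11b, Ocstamp and Dcstamp. Each line gives the 250 bases before the start on the strand of the gene, 5′ to 3′. Capitals mark words searched on both strands: GGAAA (the core of NFAT sites), GAGGAA (PU.1), TCATGTG and CACGTG (MITF and TFE) and TGANTCA (AP-1), where GGAAA and GAGGAA can overlap. The Ctsk window is chr3:95498960-95499209 on the plus strand, the Gpnmb window chr6:49036268-49036517 on the plus strand, and the window of the third of 3 Acp5 starts chr9:22130599-22130848 on the minus strand.
Ctsk: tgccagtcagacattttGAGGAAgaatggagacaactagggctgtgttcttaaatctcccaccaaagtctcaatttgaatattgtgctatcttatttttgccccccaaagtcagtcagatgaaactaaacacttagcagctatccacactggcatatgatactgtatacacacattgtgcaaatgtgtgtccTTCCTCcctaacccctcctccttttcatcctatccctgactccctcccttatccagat
Gpnmb: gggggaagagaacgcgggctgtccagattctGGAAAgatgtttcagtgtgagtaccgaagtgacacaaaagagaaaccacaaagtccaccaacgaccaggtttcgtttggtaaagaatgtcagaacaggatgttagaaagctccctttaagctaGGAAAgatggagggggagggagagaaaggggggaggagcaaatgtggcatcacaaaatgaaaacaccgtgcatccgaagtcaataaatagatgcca
Acp5, start 3: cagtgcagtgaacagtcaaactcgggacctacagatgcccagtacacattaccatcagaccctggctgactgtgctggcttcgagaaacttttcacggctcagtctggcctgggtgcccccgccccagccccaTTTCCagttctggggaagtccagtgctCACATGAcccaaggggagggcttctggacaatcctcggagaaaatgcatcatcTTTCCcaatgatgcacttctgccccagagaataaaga
Ctsk carried GAGGAA at bases -233 to -228 and on the other strand at -58 to -53, a word that 23.3% of 32851 windows of the same length held. Acp5 start 3 carried TCATGTG on the minus strand of the window at -90 to -84, which 3.25% of windows held, and GGAAA at 2 places. This window was chosen because it held TCATGTG, and the windows of Acp5 starts 1 and 2 did not hold it. Gpnmb held 2 copies of GGAAA, as 55.6% of windows held at least 1, and neither MITF word. CACGTG stood in 6.02% of all windows and TGANTCA in 6.75%, and both were in none of the windows of the 7 genes. Such matches are descriptions of the letters and not binding sites.

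In DMSO, 48 h against 3 h, 8 of the 10 genes passed the filter on low counts and 7 of them were higher (edgeR's quasi-likelihood test, Benjamini-Hochberg adjusted p below 0.05). Among all 16850 genes tested 49.3% were called in either direction and 24.5% were called higher. The members' median log2 fold change was 1.11, against -0.01 over all genes tested. Ocstamp and Dcstamp did not pass the filter in any fit, and Tnfsf11 passed in DMSO mainly through the later times, so that its presence among the genes tested depended on its being high there.

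**Figure D1:**
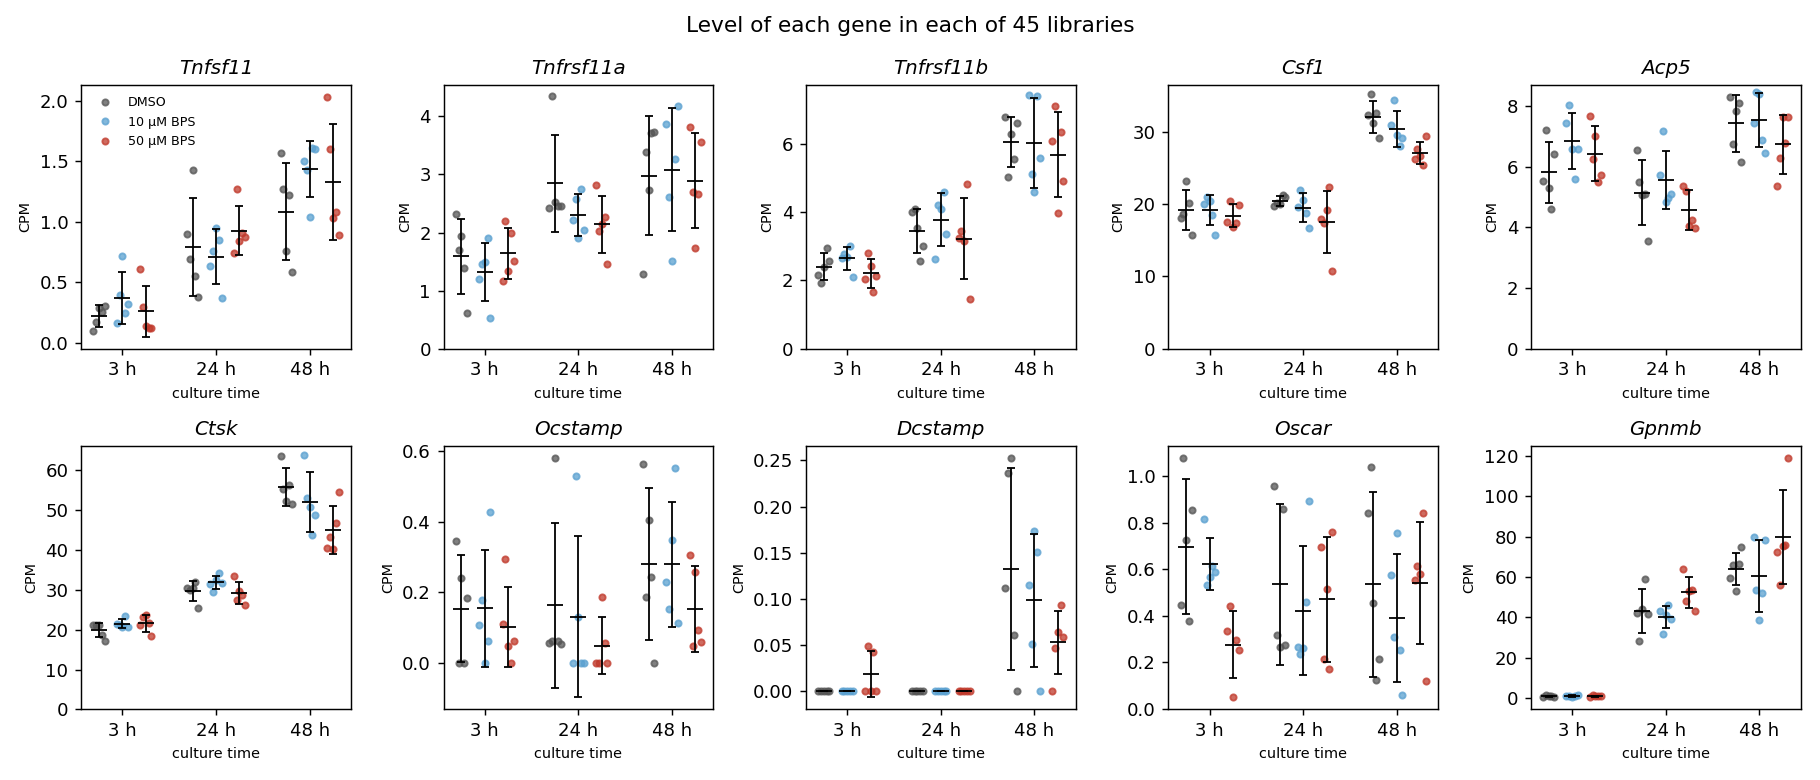
CPM (y axis, linear) of each of the 10 genes in each of 45 libraries by culture time (x axis), with DMSO in grey, 10 µM BPS in blue and 50 µM BPS in red; black bars are the mean and SD of 5 libraries. Gpnmb lies between 0.412 and 1.77 CPM in the 15 libraries of 3 h and between 28.3 and 63.8 CPM in those of 24 h, and Ctsk rises at each step.

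Tnfsf11 encodes RANKL, the membrane-bound or shed ligand that triggers osteoclast differentiation (ENSMUSG00000022015, chr14:78277445-78308043, minus strand, mm10). In DMSO its 5 libraries had 1.57, 1.27, 0.76, 1.22 and 0.587 CPM at 48 h, and 0.0986, 0.17, 0.291, 0.252 and 0.306 CPM at 3 h. The lowest library of 48 h lay above the highest of 3 h. The log2 fold change was 2.26 ± 0.399 (SE; edgeR adjusted p = 0.000166). Tnfsf11 passed the filter on low counts here through the 48 h libraries, so this test depended on its being high there. At 24 h DMSO libraries had 0.903, 0.693, 1.43, 0.552 and 0.383 CPM. Tnfsf11 did not pass the filter for 24 h against 3 h, where the authors' deposited table gives a log2 fold change of 1.85 with an adjusted p of 0.00356. These levels rest on few reads, 101 over the 5 libraries of 48 h and 20 over those of 3 h. The 2 BPS arms, which are separate libraries, gave 1.92 ± 0.37 at 10 µM (edgeR adjusted p = 1.71e-05) and 2.34 ± 0.393 at 50 µM (1.39e-06) for 48 h against 3 h.

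Tnfrsf11a encodes RANK, the receptor that osteoclast precursors carry (ENSMUSG00000026321, chr1:105780718-105847981, plus strand). In DMSO it had 1.29, 3.39, 2.74, 3.72 and 3.73 CPM at 48 h, against 2.32, 1.7, 1.94, 1.39 and 0.611 CPM at 3 h. Replicate 1 of 48 h lay inside the range of 3 h, and the other 4 lay above it. The log2 fold change was 0.89 ± 0.314 (edgeR adjusted p = 0.0279). The adjusted p was 0.0591 without replicate 4 and 0.0605 without replicate 5 of 3 h, and 0.0607, 0.0666 and 0.0611 without replicates 2, 4 and 5 of 48 h, so each of these 5 libraries was needed for the call. In the BPS arms the gene was higher by 1.23 ± 0.287 at 10 µM (0.000295) and by 0.80 ± 0.28 at 50 µM (0.0135) on the log2 scale.

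Tnfrsf11b, the decoy receptor OPG (ENSMUSG00000063727, chr15:54250619-54278484, minus strand), had a higher mean than Tnfsf11 and Tnfrsf11a in DMSO at 3 and 48 h, also per kilobase. In DMSO it had 6.8, 5.04, 6.28, 5.55 and 6.62 CPM at 48 h, against 2.17, 1.93, 2.38, 2.96 and 2.57 CPM at 3 h, with no overlap. The log2 fold change was 1.34 ± 0.158 (edgeR adjusted p = 2.33e-06). At 10 µM BPS it was 1.19 ± 0.194 and at 50 µM BPS 1.37 ± 0.198, and both were called.

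Ligand and decoy are often read as a ratio, since OPG binds RANKL. The ratio of Tnfsf11 to Tnfrsf11b reads per kilobase averaged 0.116, 0.287 and 0.230 in DMSO at 3, 24 and 48 h. It averaged 0.179, 0.239 and 0.306 at 10 µM BPS, and 0.151, 0.416 and 0.294 at 50 µM BPS, over the same times. The 50 µM mean at 3 h rests on replicate 1, at 0.375, and was 0.0945 without it, with a median of 0.0969. Single libraries overlapped between doses at each time. At 24 h the 50 µM libraries had 0.288, 0.465, 0.334, 0.237 and 0.756, and the DMSO libraries 0.284, 0.213, 0.508, 0.27 and 0.16. The value of 0.756 is that of the library with the lowest Tnfrsf11b of its time, 1.46 CPM. No test was run on the ratio, which in every library was below 1.

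**Figure D2:**
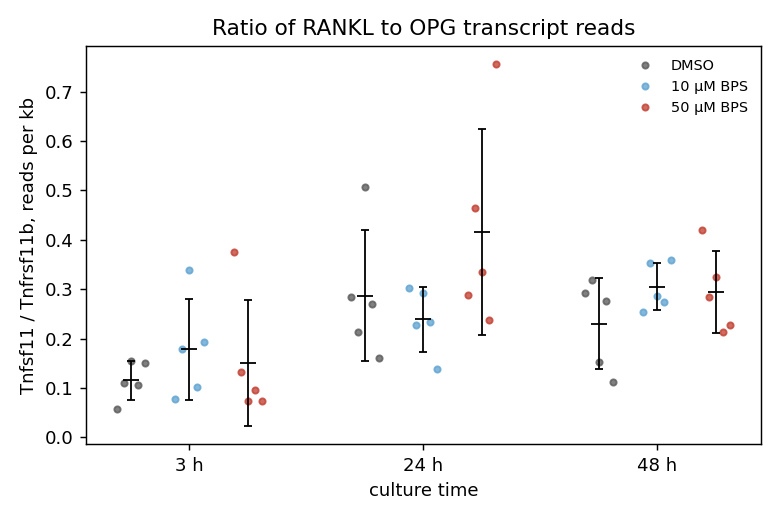
Ratio of Tnfsf11 to Tnfrsf11b reads per kilobase (y axis, linear) in each of 45 libraries by culture time (x axis); colours mark DMSO, 10 and 50 µM BPS, and black bars the mean and SD of 5 libraries. The doses overlap at each time, and the highest library, at 0.756, belongs to 50 µM BPS at 24 h.

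Csf1, the growth factor of macrophages and osteoclast precursors (ENSMUSG00000014599, chr3:107741048-107760469, minus strand), changed late. Its mean in DMSO was 19.2 ± 2.78, 20.4 ± 0.695 and 32.2 ± 2.19 CPM at 3, 24 and 48 h (SD, n = 5). For 48 h against 24 h the log2 fold change was 0.65 ± 0.074 (edgeR adjusted p = 1.92e-05), while 24 h against 3 h gave 0.09 ± 0.092 (0.47). The libraries of 48 h, from 29.2 to 35.3 CPM, did not overlap those of 3 h, from 15.7 to 23.2 CPM. The BPS arms gave 0.64 ± 0.103 at 10 µM and 0.62 ± 0.104 at 50 µM for 48 h against 24 h, both called. By Pearson correlation of log2 CPM over the 45 libraries, Csf1 was closest to Phf19 (0.909), Ehd2 (0.904) and Plaur (0.904), Tnfrsf11b to Col6a2 (0.898), Fry (0.896) and Klf4 (0.894), and Tnfrsf11a to Phactr1 (0.761), Tacc1 (0.758) and Sh3pxd2b (0.758).

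Ctsk encodes cathepsin K, the collagen-degrading protease of the osteoclast (ENSMUSG00000028111, chr3:95499256-95509362, plus strand; its promoter is printed above). In DMSO the 5 libraries had 63.6, 55.3, 52.3, 56.4 and 51.5 CPM at 48 h, against 21.3, 21.3, 21.2, 18.6 and 17.3 CPM at 3 h, and those of 24 h lay between, from 25.4 to 32.1 CPM. The steps were 0.57 ± 0.084 on the log2 scale for 24 h against 3 h (edgeR adjusted p = 1.26e-05) and 0.90 ± 0.081 for 48 h against 24 h (1.92e-06). Both steps were also called in each BPS arm. Over the 45 libraries the genes closest to Ctsk by Pearson correlation of log2 CPM were Penk (0.972), Col1a1 (0.97) and Col1a2 (0.969), where Penk encodes proenkephalin and the others encode the chains of type I collagen. These points share 3 culture times, and the values are a description.

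Acp5, tartrate-resistant acid phosphatase, is the classical stain of osteoclasts (ENSMUSG00000001348, chr9:22126727-22135711, minus strand). Its course was not one-way. The mean in DMSO was 5.81 ± 1.02, 5.15 ± 1.07 and 7.43 ± 0.947 CPM at 3, 24 and 48 h, at 10 µM BPS 6.85 ± 0.934, 5.56 ± 0.955 and 7.53 ± 0.893 CPM, and at 50 µM BPS 6.43 ± 0.897, 4.57 ± 0.663 and 6.73 ± 0.972 CPM (SD, n = 5). For 24 h against 3 h Acp5 was called lower at 50 µM (-0.49 ± 0.143, edgeR adjusted p = 0.00466), while DMSO gave -0.18 ± 0.165 (0.423). The difference between these 2 was not called in the interaction test (-0.31 ± 0.204, edgeR adjusted p = 0.799). For 48 h against 24 h Acp5 was higher in DMSO (0.52 ± 0.157, 0.0327), at 10 µM (0.44 ± 0.141, 0.0173) and at 50 µM (0.55 ± 0.144, 0.00282).

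In DMSO the difference of Acp5 for 48 h against 3 h, 0.36 ± 0.142 (edgeR adjusted p = 0.0454), was close to the threshold. Its adjusted p lay between 0.0746 and 0.114 without replicate 1, 3 or 4 of 3 h or replicate 1, 3 or 4 of 48 h. For 48 h against 24 h it lay between 0.0522 and 0.0774 without replicate 2, 3, 4 or 5 of 24 h or replicate 1, 3 or 4 of 48 h. At 10 µM the same step had 0.0565 without replicate 3 of 24 h, and 0.0547 and 0.0544 without replicates 2 and 3 of 48 h. The closest genes by correlation over 45 libraries were Lgals7 (0.804), Icam1 (0.796) and Esrp2 (0.791).

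Gpnmb, a membrane glycoprotein of osteoclasts, macrophages and melanocytes (ENSMUSG00000029816, chr6:49036546-49070929, plus strand), had the largest log2 fold change with time of the 8 genes tested in DMSO, 48 h against 3 h. In DMSO it had 42.3, 28.3, 44.1, 58.8 and 41.5 CPM at 24 h, against 0.69, 1.48, 0.97, 1.2 and 0.733 CPM at 3 h. The ratio of the means was 42.4, and that of 48 h over 3 h was 63.1. The log2 fold change for 24 h against 3 h was 5.41 ± 0.238 (edgeR adjusted p = 2.15e-09), and 48 h against 24 h added 0.57 ± 0.147 (0.0177). The second step had an adjusted p of 0.0609 without replicate 1 of 48 h. The BPS arms gave 5.09 ± 0.274 at 10 µM and 5.57 ± 0.273 at 50 µM for the first step.

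The 7 melanocyte genes summed to between 1.72 and 4.71 CPM in DMSO at 48 h and to between 1.76 and 2.81 CPM at 3 h, and each had at least 1 read in both groups. Of the 2 that passed the filter, Pmel, a melanosome protein, was higher (0.69 ± 0.269, edgeR adjusted p = 0.0433), with 0.0832 under the replicate block and 0.0507 to 0.13 without replicate 2, 3, 4 or 5 of 3 h or replicate 1, 2, 4 or 5 of 48 h. The sum of 18 macrophage markers ran from 309 to 388 CPM at 48 h and from 143 to 160 CPM at 3 h, with none at 0. The one with the smallest adjusted p, Lyz2, the lysozyme of macrophages, rose by 4.46 ± 0.134 on the log2 scale (edgeR adjusted p = 4.5e-13). Csf1r, on the same list, rose by 0.83 ± 0.107 (6.58e-06). The 12 osteoblast genes summed to between 6870 and 8580 CPM at 48 h and to between 1620 and 1830 CPM at 3 h, and 1 of them was at 0 reads at 3 h. Col1a1 alone averaged 6780 CPM at 48 h and 1610 CPM at 3 h, so this sum mainly reflects that gene. Chondrocyte markers, 10 genes, averaged 17500 CPM in sum at 48 h and 4770 CPM at 3 h, and 9 markers of hypertrophic cartilage averaged 1010 CPM at 48 h and 190 CPM at 3 h. The hypertrophic list shares Sp7, Alpl, Spp1 and Ibsp with the osteoblast list, so these sums are not independent. The part of any of these cell types in the rise of Gpnmb, Ctsk or Csf1 was not tested. In whole limbs, more cells of a type and more RNA per cell cannot be told apart. The genes closest to Gpnmb over 45 libraries were Cytl1 (0.983), Cyr61 (0.979) and Fbln5 (0.979), all secreted proteins of cartilage or connective tissue.

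The fusion genes were at the limit of detection. Ocstamp (ENSMUSG00000027670, chr2:165393760-165400405, minus strand) had 137 reads over all 45 libraries and at least 1 read in 34 of them. Dcstamp (ENSMUSG00000022303, chr15:39745930-39760938, plus strand), the transmembrane protein needed for precursors to fuse, had 29 reads in 14 libraries. By time, Dcstamp had 2, 0 and 27 reads over the 15 libraries of 3, 24 and 48 h, and it had a read in 12 of the 15 libraries of 48 h. In DMSO the 5 libraries of 48 h held 13 reads and those of 3 h held 0. Scaled for depth, the 48 h reads stood 3.98-fold above a floor of 3 reads over the 3 h group. The 13 reads were taken as exact, so this value is not a lower limit of the change. By dose at 48 h the reads were 13 in DMSO, 9 at 10 µM BPS and 5 at 50 µM BPS, and all 3 groups included a library at 0. Ocstamp had 26, 26 and 13 reads in the same groups. Neither passed the filter, so neither has a test here. The authors' deposited table gives Dcstamp a log2 fold change of 3.73 with an adjusted p of 0.0496 for 48 h against 3 h in DMSO. For 48 h against 24 h it gives 3.65, without an adjusted p below 0.05.

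Oscar encodes a collagen-binding receptor that co-stimulates osteoclast formation (ENSMUSG00000054594, chr7:3609813-3616157, minus strand). It was the one tested member that was not called with time in any arm. In DMSO it had 0.843, 1.04, 0.456, 0.122 and 0.213 CPM at 48 h and 0.444, 1.08, 0.727, 0.378 and 0.855 CPM at 3 h, with wide overlap (log2 fold change -0.34 ± 0.47, edgeR adjusted p = 0.572). At 3 h the 50 µM BPS libraries had 0.333, 0.44, 0.0477, 0.297 and 0.252 CPM, and 4 of the 5 lay below all DMSO libraries. Oscar did not pass the filter in that comparison and has no edgeR test there. The authors' deposited table gives it a log2 fold change of -1.35, without an adjusted p below 0.05.

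The members called in each step were counted separately. For 24 h against 3 h in DMSO, 4 of 7 tested members were higher (Gpnmb, Tnfrsf11a, Ctsk and Tnfrsf11b), where 40.2% of 16536 genes were called and 20% were called higher. For 48 h against 24 h in DMSO, 5 of 7 were higher (Ctsk, Tnfrsf11b, Csf1, Gpnmb and Acp5), where 16.0% of 16694 genes were called and 9.44% were called higher. Tnfrsf11a rose in the first step by 0.81 ± 0.273 (edgeR adjusted p = 0.0224) and differed by 0.06 ± 0.263 (0.908) in the second. Its first step had an adjusted p of 0.0525 without replicate 5 of 3 h and 0.0899 without replicate 2 of 24 h. The first step of Tnfrsf11b, 0.52 ± 0.189 (0.0318), had adjusted p-values of 0.0522 to 0.0868 without replicate 1, 2 or 3 of 3 h or replicate 1, 2 or 3 of 24 h. Without replicate 2 of 24 h, only Gpnmb and Ctsk of the 4 were called. Without replicate 1 of 48 h, 3 members in place of 5 were called for 48 h against 24 h.

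The BPS arms, in libraries of their own, were fitted together with the controls in 1 model of 18432 genes. At 50 µM, 24 h against 3 h had 4 members higher and Acp5 lower of 8 tested, where 41.6% of all genes were called, 20.5% higher and 21.1% lower. For 48 h against 24 h 5 members were higher (24.0% of genes called, 12.9% higher), and for 48 h against 3 h 6 were higher (52.4% called, 25.2% higher). At 10 µM 4 of 8 members were higher for 24 h against 3 h (39.8% of genes called, 20.2% higher), 6 for 48 h against 24 h (22.6% called, 12.8% higher) and 6 for 48 h against 3 h (51.6% called, 25.2% higher). Tnfsf11 entered this fit through the later groups, where it is high, and the 50 µM libraries of 3 h held 11, 6, 3, 3 and 2 of its reads. It was called for 24 h against 3 h at 50 µM (1.83 ± 0.403, edgeR adjusted p = 0.000202) and for 48 h against 24 h at 10 µM (1.00 ± 0.343, 0.0267). The 10 µM value had adjusted p-values of 0.0518 to 0.101 without replicate 1 or 5 of 24 h or replicate 4 or 5 of 48 h. At 10 µM, 24 h against 3 h, Tnfsf11 gave 0.92 ± 0.393 (0.0572), which became 0.013 without replicate 3 of 3 h and 0.0301 without replicate 5 of 24 h.

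In the same 10 µM step 2 members in place of 4 were called without replicate 5 of 3 h or without replicate 4 of 24 h. Tnfrsf11a (0.80 ± 0.293, edgeR adjusted p = 0.0254) reached 0.0539 to 0.104 without replicate 5 of 3 h or replicate 2 or 4 of 24 h. Tnfrsf11b (0.51 ± 0.199, 0.0352) reached 0.0509 to 0.0989 without replicate 1, 3 or 5 of 3 h or replicate 2, 3 or 4 of 24 h. Acp5 (-0.31 ± 0.141, 0.0773) became 0.0428 without replicate 4 of 3 h and 0.0216 without replicate 2 of 24 h. The second 10 µM step of Gpnmb (0.59 ± 0.181, 0.0155) reached 0.0524 to 0.076 without replicate 2 of 24 h or replicate 1 or 5 of 48 h. At 50 µM the first step of Tnfrsf11b (0.55 ± 0.204, 0.0264) reached 0.0534 to 0.157 without replicate 4 of 3 h or replicate 2 or 4 of 24 h, and the second step of Gpnmb (0.60 ± 0.178, 0.0112) reached 0.091 without replicate 5 of 48 h.

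**Figure D3:**
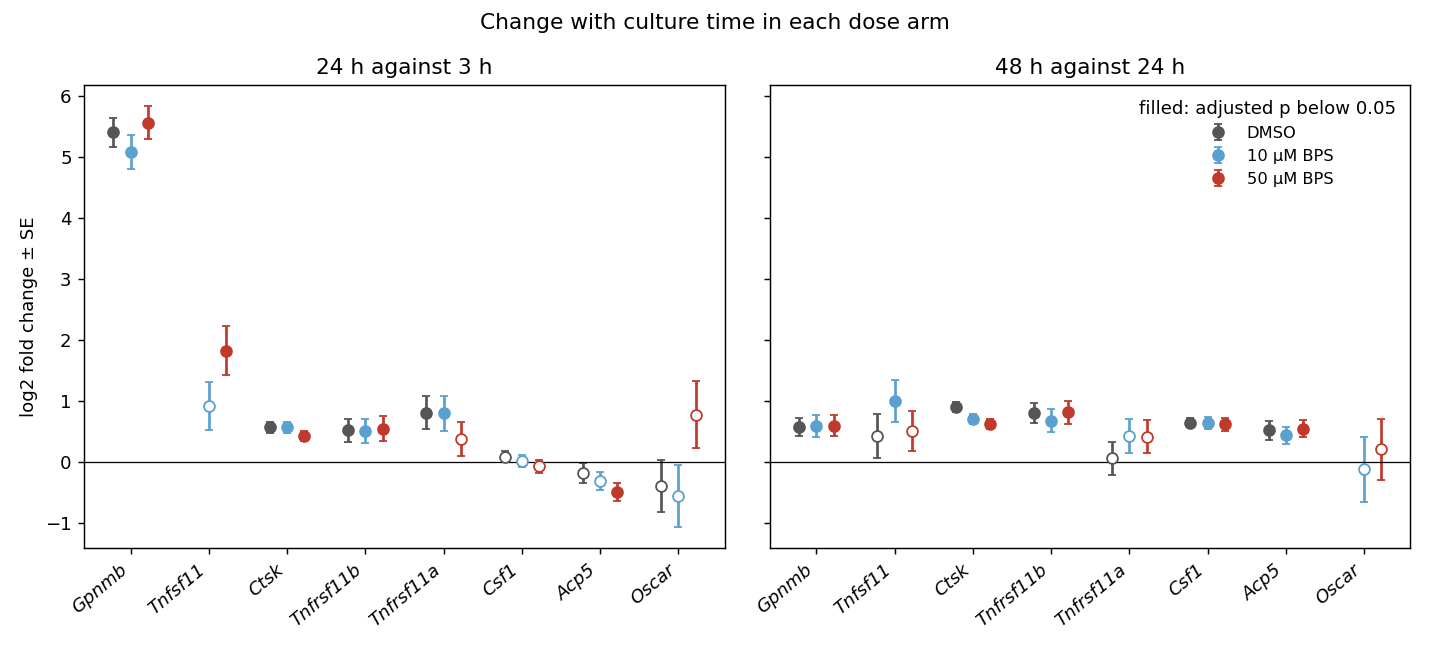
Log2 fold change with its SE (y axis) of 8 genes for 24 h against 3 h (left) and 48 h against 24 h (right), in DMSO (grey), 10 µM BPS (blue) and 50 µM BPS (red); filled points have an adjusted p below 0.05, and a gene has no point where it did not pass the filter. DMSO values come from fits of 10 libraries and BPS values from the fit of 45; Gpnmb lies between 5.09 and 5.57 in the first step in the 3 arms.

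The rest of the pathway was mixed over the same interval in DMSO, 48 h against 3 h, where 49.3% of all genes were called and 24.5% were called higher. Of 13 osteoclast transcription factors 8 were higher and 1 lower (median log2 fold change 0.33). Those higher included Bcl6 (0.93 ± 0.092), a transcriptional repressor, and Jdp2 (0.47 ± 0.073), an AP-1 family factor. Of 13 genes of RANK signal transduction 4 were higher and 2 lower (median 0.14), a share near that of all genes, among them the NF-kappaB subunit Nfkb1 (0.33 ± 0.064), the kinase Map3k14 (0.40 ± 0.097) and the kinase Map3k7 (-0.26 ± 0.066). Of 18 genes of acid secretion and matrix resorption 17 were tested, 7 were higher and 2 lower (median 0.17), also near the share of all genes. The proteases Mmp9 (1.8 ± 0.099) and Mmp14 (0.74 ± 0.056) rose, while Car2, the carbonic anhydrase that supplies protons, fell (-1.81 ± 0.189).

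In the same comparison, with 49.3% of all genes called and 24.5% called higher, genes of the co-stimulating ITAM adaptors were higher for 6 of the 7 tested from a list of 10 (median 1.54), among them Plcg2 (1.54 ± 0.097), Trem2 (2.31 ± 0.182) and Tyrobp (2.05 ± 0.175), which macrophages use as well. Of 13 stromal regulators of RANKL 11 were tested, 6 were higher and 3 lower (median 0.28). These included Ptgs2, the inducible prostaglandin synthase, by 3.78 ± 0.283, the vitamin D receptor Vdr by 1.73 ± 0.142 and the cytokine Il11 by 2.05 ± 0.327, all higher. Of 16 lysosome genes outside the osteoclast 15 were higher and 0 lower (median 0.76), with Ctsd at 1.61 ± 0.092, Ctss at 2.12 ± 0.133 and Ctsb at 1.06 ± 0.069. Among the 5 other ligands and receptors, Csf1r (0.83 ± 0.107) and Lgr4 (0.23 ± 0.065) were higher and Tnfsf13b (-2.53 ± 0.277) was lower, of 4 tested. These values are log2 fold changes ± SE, and the genes named were called by edgeR.

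Under BPS no member was called. In the 6 comparisons of BPS against DMSO, in which both doses share the DMSO libraries of their time, between 6 and 8 of the genes passed the filter and 0 were called by edgeR. At 50 µM the share of all genes called was 0.0538% at 3 h, 0.375% at 24 h and 1.00% at 48 h, and at 10 µM it was 0.0% at each time (329, 494 and 438 genes at an unadjusted p below 0.05 at 3, 24 and 48 h). DESeq2 called 1 member, Ctsk at 50 µM and 48 h, and 0 in the other 5 comparisons. A p that misses the threshold does not show that levels were equal. At an unadjusted p below 0.05, 2 of the 8 members tested at 50 µM and 48 h passed, Ctsk and Csf1, and 0 members passed in the other 5 comparisons. The numbers of genes tested in these comparisons lay between 16512 and 16725. With the replicate number as a block the count of members called was also 0 in each, while the share of all genes called became 1.53% at 50 µM and 3 h, 5.75% at 50 µM and 24 h, 0.42% at 50 µM and 48 h and 0.0% at 10 µM and 24 h.

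Ctsk had a lower mean at 48 h under 50 µM BPS, with 40.5, 43.2, 40.2, 46.9 and 54.6 CPM, against 63.6, 55.3, 52.3, 56.4 and 51.5 CPM in DMSO. Replicate 5 of 50 µM lay inside the DMSO range and the other 4 lay below it. The mean was 19.2% lower, and the log2 fold change was -0.31 ± 0.088 (edgeR adjusted p = 0.123). The adjusted p was 0.0291 in the fit of all 45 libraries, 0.036 without the filter on low counts, 0.0498 with DESeq2 and 0.037 without replicate 5 of 50 µM. Across all settings tried it ran from 0.0291 to 0.303. The authors' deposited table gives Ctsk a log2 fold change of -0.31 with an adjusted p of 0.047.

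Csf1 was also lower in the mean at 48 h, with 26.2, 27.7, 26.7, 25.4 and 29.4 CPM under 50 µM BPS and 32.3, 35.3, 31.3, 32.6 and 29.2 CPM in DMSO. The lowest DMSO library, at 29.2 CPM, lay within the range of the treated ones. The mean was 15.7% lower (-0.25 ± 0.073, edgeR adjusted p = 0.133), and in none of the settings tried did the adjusted p fall below 0.05 (0.0525 with DESeq2). The authors' deposited table gives -0.25 with an adjusted p of 0.0495. At 24 h the log2 difference was -0.21 ± 0.134 (edgeR adjusted p = 0.554), and replicate 5 of 50 µM, at 10.8 CPM, was the lowest of the 15 libraries of that time.

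At 10 µM and 48 h the values lay between those of DMSO and 50 µM in the mean, 52.1 ± 7.48 CPM for Ctsk and 30.5 ± 2.51 CPM for Csf1 (SD, n = 5). The log2 differences from DMSO were -0.10 ± 0.092 and -0.08 ± 0.077, with edgeR adjusted p-values of 1.0. Whether the 50 µM response of Ctsk differed between times was tested as an interaction. The difference of 48 h minus 3 h was -0.43 ± 0.121 (edgeR adjusted p = 0.167), and that of 48 h minus 24 h was -0.28 ± 0.119 (edgeR adjusted p = 1.0). In these interactions edgeR called 0 of 8 members and DESeq2 0, and 1 member (Ctsk) had an unadjusted p below 0.05 in each of these 2 contrasts and 0 for 24 h minus 3 h, with 0.0922% of 18432 genes called for 48 h minus 3 h and 0.0% for each of the other contrasts.

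The receptor of CSF1 was called lower. Csf1r, which macrophages and osteoclast precursors carry, had 14.4, 15.4, 14.3, 16 and 21.5 CPM under 50 µM BPS at 48 h and 27.6, 25, 25.3, 26 and 25.2 CPM in DMSO, with no overlap. The log2 fold change was -0.67 ± 0.104 (edgeR adjusted p = 0.00501), and it was called in each setting tried. The 10 µM libraries of 48 h ran from 24.4 to 28.2 CPM. At 24 h Csf1r had 12.3 to 13.5 CPM under 50 µM BPS and 14.8 to 21.0 CPM in DMSO, also with no overlap. At 3 h the ranges, 12.4 to 16.3 CPM and 12.1 to 18.1 CPM, overlapped. For 24 h no edgeR result of Csf1r is given here, and the share of all genes without overlap was not counted. The 24 h ranges are therefore a description. For 50 µM BPS against DMSO at 48 h 1.00% of 16663 genes were called, 87 of them lower. Of the 17 macrophage markers tested 4 were lower and 0 higher, among them Csf1r, C1qc (-0.57 ± 0.111, edgeR adjusted p = 0.0224) and C1qa (-0.58 ± 0.131, 0.0467), where C1qa and C1qc are chains of complement C1q. C1qc had adjusted p-values of 0.0536 to 0.0818 without replicate 2 or 4 of DMSO or replicate 1, 3 or 4 of 50 µM, and 0.0866 with the replicate block. C1qa had 0.0549 to 0.125 without replicate 2, 4 or 5 of DMSO or replicate 1, 2, 3 or 4 of 50 µM, and 0.133 with the block.

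Of the other pathway genes at 50 µM and 48 h, with 1.00% of all genes called, edgeR called 0 of 13 osteoclast transcription factors, 0 of 13 RANK signalling genes, 0 of 7 ITAM genes tested (median log2 fold change -0.27), 0 of 17 resorption genes, 0 of 11 RANKL regulators and 0 of 16 lysosome genes, where the median over all genes was -0.004. The summed level of all 18 macrophage markers ran from 223 to 313 CPM under 50 µM BPS and from 309 to 388 CPM in DMSO, with none at 0. At 24 h this sum ran from 184 to 210 CPM under 50 µM BPS and from 217 to 268 CPM in DMSO, without overlap. No test was run on the sums. At 48 h the 7 endothelial markers summed to 220 ± 18.1 CPM under 50 µM BPS and 269 ± 34.8 CPM in DMSO (SD, n = 5), with overlap and none at 0. Of these 1 was called lower, the endothelial cadherin Cdh5 (-0.33 ± 0.07, edgeR adjusted p = 0.0368). Its adjusted p was 0.106 with the replicate block and 0.0507 to 0.111 without replicate 2, 3 or 4 of DMSO or any 1 of replicates 1 to 5 of 50 µM. Of 9 markers of hypertrophic cartilage 1 was higher, the signal protein Ihh (0.63 ± 0.123, edgeR adjusted p = 0.0295), with 0.0705 without the filter and 0.0569 to 0.0818 without replicate 2, 4 or 5 of DMSO or replicate 1, 3 or 4 of 50 µM. The 12 osteoblast genes summed to between 6280 and 7550 CPM under 50 µM BPS and between 6870 and 8580 CPM in DMSO, with 0 called. In DMSO most of this sum was Col1a1, which averaged 6780 CPM. The library with the highest Ctsk under 50 µM, replicate 5, was also the highest of its group in Csf1, Csf1r and Gpnmb. Fewer macrophages and less of these RNAs per cell cannot be told apart in whole limbs, and the part of the macrophage and endothelial markers in the lower means of Ctsk and Csf1 was not tested.

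**Figure D4:**
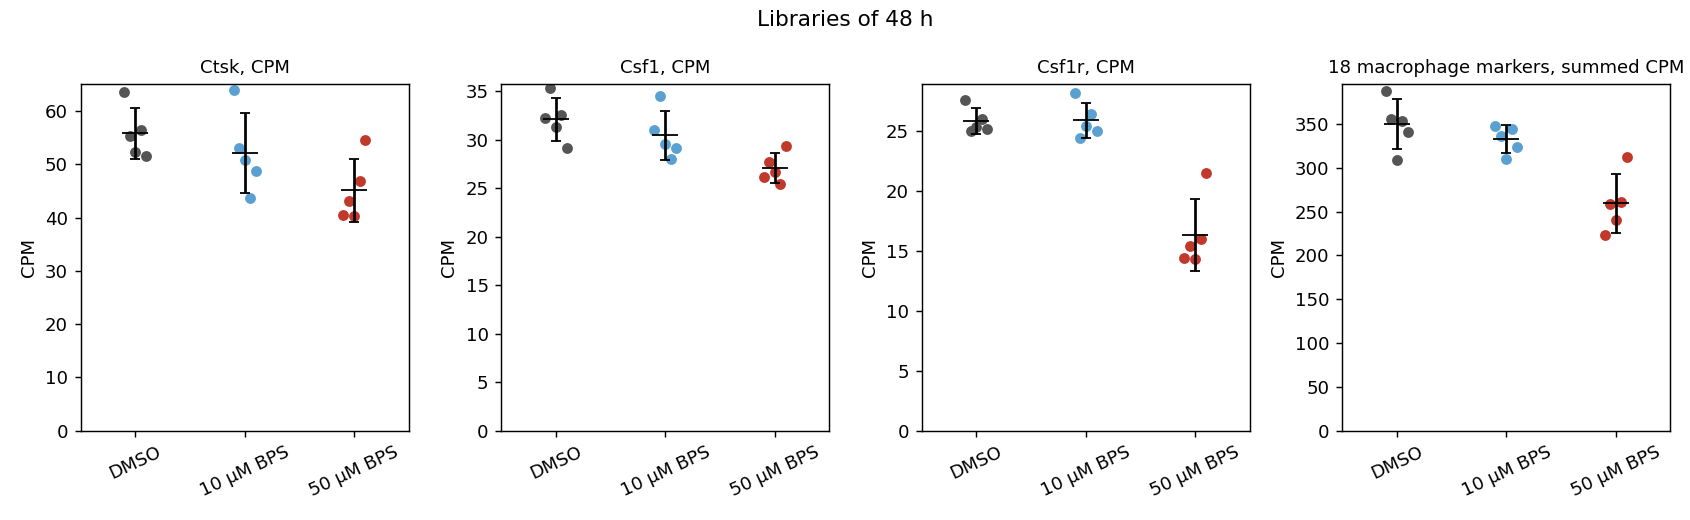
CPM (y axes from 0) of Ctsk, Csf1, Csf1r and the sum of 18 macrophage markers in each library of 48 h by dose (x axis); black bars are the mean and SD of 5 libraries. Csf1r of the 50 µM BPS libraries lies at or below 21.5 CPM and that of DMSO libraries at or above 25 CPM, while Ctsk and Csf1 overlap between these groups.

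Gpnmb went the other way in the mean. At 48 h it had 72.3, 56, 75.3, 75.9 and 119 CPM under 50 µM BPS and 59.7, 66, 53, 66.5 and 74.6 CPM in DMSO, with overlap (0.32 ± 0.177, edgeR adjusted p = 0.498). At 24 h the treated libraries had 63.8, 48.1, 53.3, 53.7 and 43.3 CPM and the DMSO libraries 42.3, 28.3, 44.1, 58.8 and 41.5 CPM, also with overlap (0.29 ± 0.172, 0.544). At 10 µM the log2 differences were -0.10 ± 0.171 at 24 h and -0.09 ± 0.183 at 48 h, and neither was called.

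Where they were tested, the RANKL, RANK and OPG genes showed no called response. Tnfsf11 did not pass the filter at 3 h at either dose and has no edgeR test there. Its 3 h mean was 0.223 ± 0.0874 CPM in DMSO, 0.37 ± 0.215 CPM at 10 µM and 0.26 ± 0.208 CPM at 50 µM. For Tnfsf11 at 48 h the differences from DMSO were 0.41 ± 0.278 at 10 µM and 0.29 ± 0.316 at 50 µM on the log2 scale, with a DMSO mean of 1.08 ± 0.402 CPM (SD, n = 5). For Tnfrsf11a the largest difference was -0.39 ± 0.227 at 50 µM and 24 h (edgeR adjusted p = 0.502), and for Tnfrsf11b it was 0.14 ± 0.184 at 10 µM and 3 h (adjusted p = 1.0). Small changes were not detectable at this depth for Tnfsf11 and Oscar, which had 20 to 132 and 27 to 63 reads over a group of 5 libraries. Acp5 stayed within -0.16 and 0.24 of DMSO on the log2 scale in the 6 comparisons, with 0 calls.

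**Figure D5:**
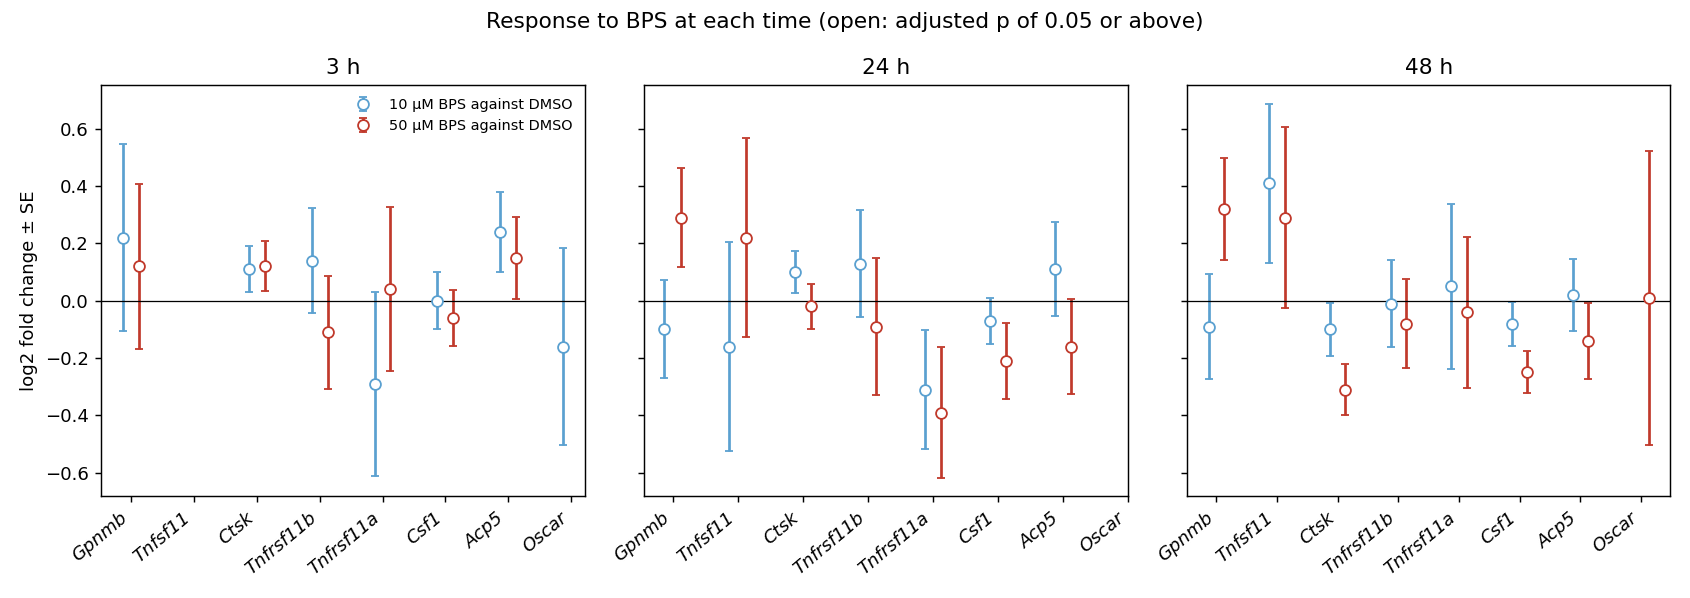
Log2 fold change with its SE (y axis) of 8 genes for 10 µM BPS (blue) and 50 µM BPS (red) against DMSO at 3, 24 and 48 h; each point is open because its adjusted p was 0.05 or above, and a gene has no point where it did not pass the filter. At 48 h Ctsk at -0.31 and Csf1 at -0.25 lie lowest under 50 µM.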

How the data were processed

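Each of 9 deposited tables covers 1 comparison and holds unnormalised read counts for its genes and libraries, per the file headers, next to log2 fold changes and adjusted p-values computed by the authors. Those fold changes and p-values are the authors' own and are quoted only where the deposited table is named. Tools listed in the submitters' processing notes, without their roles, are STAR 2.5, HTSeq 0.6.1, CASAVA 1.8 and DESeq2 (version 2 as listed), and the build is mm10. The gene annotation release is not given in the sources used here. Since strand-specific counting is not mentioned, a gene and a partner on the opposite strand may share reads.

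Tables were joined by gene identifier. Of 1319925 counts that tables repeated, 0 differed, 0 count columns belonged to other samples, and a gene listed in none of a library's tables was set to 0 (Dcstamp was listed in 5 of 9). CPM used TMM factors over 45 libraries. CPM per kb divides by the deposited gene length. Pairs of groups were tested on their 10 libraries, BPS time courses and interactions in 1 fit of 45, using edgeR 4.0.16 (R 4.3.3) and its quasi-likelihood F test with TMM, filterByExpr and robust estimation. Benjamini-Hochberg adjustment ran over every gene of a fit. The SE is the log2 fold change divided by the square root of F. The test was checked on simulated counts. Alternatives were DESeq2 1.42.0, RLE scaling, no filter, a fit of all 45 libraries, a replicate block and leaving out each library. The read floor of Dcstamp covers only the counting error of the group at 0 reads.

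The replicate numbers were read from the sample titles. Deviations from group means of same-numbered libraries correlated above 0.1, the rule for pairing, in all 5 pairs for 50 µM at 3 h (0.109 to 0.309), 50 µM at 24 h (0.12 to 0.322) and 10 µM at 24 h (0.135 to 0.313). Blocking by number there called 256, 949 and 0 genes, against 9, 62 and 0 without it, and 0 members in each. The same-numbered library was not always the closest. In these comparisons replicate 2 of the treated group correlated more with another DMSO number (0.354 against 0.109, 0.168 against 0.131 and 0.229 against 0.177). Replicate 4 of 10 µM at 24 h did so too (0.181 against 0.135).

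The 10 genes and all lists were chosen with earlier results of these data known. All 10 are named. Of each list, up to 3 genes with the smallest adjusted p among those called are named for 48 h against 3 h in DMSO and for 50 µM against DMSO at 48 h, except that Calcr, Itgb3 and the marker lists' further genes are given as checks. A gene that this rule names is not reported here. Genes of similar pattern were the 3 with the highest Pearson correlation of log2 CPM (prior count 2) among genes of at least 1 CPM.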

Additional observations from a re-analysis of the deposited data

Results flagged for a closer look

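In 85 groups of 5 libraries with a value of a member, 4 held a library far from the other 4, judged by its gap to the nearest library relative to the range of the group. Chance gives about 1 group in 20. For Tnfrsf11a the library was DMSO 24 h replicate 2, with 4.35 CPM against 2.43 to 2.53 CPM in the others. For Ctsk it was 10 µM BPS 3 h replicate 4, with 23.5 CPM against 20.8 to 21.5 CPM. For Ocstamp it was DMSO 24 h replicate 3, with 0.581 CPM against 0.0547 to 0.063 CPM, and 10 µM BPS 24 h replicate 2, with 0.528 CPM against 0 to 0.129 CPM. Without the Tnfrsf11a library, that gene's difference for 24 h against 3 h in DMSO was 0.61 on the log2 scale (edgeR adjusted p = 0.0899).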

How the results depend on the processing

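The count of members called under 50 µM BPS at 48 h against DMSO, 0 as reported, was 1 (Ctsk) in the fit of all 45 libraries, without the low-count filter and with DESeq2, and ran from 0 to 1 when each library was left out. Leaving out libraries gave 2 to 4 for DMSO 24 h against 3 h, 3 to 5 for DMSO 48 h against 24 h and 2 to 5 for 10 µM BPS 24 h against 3 h. Uncalled changes that crossed 0 when a library was left out were Csf1 at 10 µM 24 h against 3 h (-0.03 to 0.07), Csf1 at 50 µM 24 h against 3 h (-0.16 to 0.06), Oscar at 10 µM 48 h against 24 h (-0.5 to 0.36), Oscar at 50 µM 48 h against 24 h (-0.02 to 0.46) and Tnfrsf11a in DMSO 48 h against 24 h (-0.03 to 0.26). Without the filter, Acp5 in DMSO 48 h against 3 h had an adjusted p of 0.0556, Gpnmb in DMSO 48 h against 24 h 0.09 and Tnfrsf11b in DMSO 24 h against 3 h 0.0522. With the replicate block, where numbers shared only a label, Acp5 and Tnfrsf11a in DMSO 48 h against 3 h had 0.0989 and 0.0884, Tnfrsf11b in DMSO 24 h against 3 h 0.0666, and 70 genes against 167 were called for 50 µM at 48 h. The block changed no other call of a member. The cause of each of these shifts was not tested. Depth limits Tnfsf11, Oscar, Ocstamp and Dcstamp.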
